A study of Mus musculus with 4 samples.

Results

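The S phase and DNA replication genes described here are 41 genes listed by name for their roles in copying DNA. No threshold on their values entered the list, but it was drawn up with earlier results of these arrays known. Of these, 40 had a probe set of their own on the array, among 18193 genes measured in all, and Chaf1a had none listed under its symbol. A gene is represented by its brightest probe set, the one with the highest mean intensity over the arrays, and its other probe sets serve as a check. That mean includes the arrays compared below, so a probe set high on 1 of them is more readily chosen. The RNA came from tumours of iNRAS-475, a mouse melanoma line injected into the dermis of nude mice, in which NRAS was switched on by doxycycline in the drinking water (2 mg/ml). The control array is a tumour kept on doxycycline, and the other arrays are tumours taken 24, 48 and 72 h after the drug was withdrawn, with 1 array per condition. Every animal was a nude mouse, a strain with few T cells of its own, and every tumour was started on doxycycline and had reached 200 to 500 mm3 after 6 weeks. The labels give neither the age of the mice nor the promoter that drives NRAS, and every tumour comes from the 1 line.

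No condition was replicated. No difference below therefore has a replicate error or a p-value, and a difference between conditions cannot be told apart from one between individual mice or pieces of tumour. The number of arrays, 4, limits the precision. The arrays had similar medians, between 33.3 and 34.0 intensity units. A difference is the later array minus its reference in log2(intensity + 32), a scale that shrinks differences of dim genes, and counts use a size of at least 0.5 or at least 1. Many deposited values are exactly equal between arrays, among them those of 11 of the 40 members on 2 or more arrays, so a difference of 0.00 may be a property of the table. The 3 probe sets of mouse Nras differed from the control by 0.57, 0.25 and 0.28 at 24 h, and the species of the inducible NRAS is not given, so they do not check the labels. The melanocytic marker Sox10 read 3771, 3613, 4681 and 3844 on the control, 24, 48 and 72 h arrays, and S100b, Mitf, Pmel and Dct also passed the level filter used below, a mean intensity of 24.9. The other 3 of the 8 melanocytic markers, Tyr (24.4 to 24.5), Tyrp1 (13.5 to 17.9) and Mlana (23.0 to 25.2), had means under it. At 72 h Pmel was 1.14 and Mitf 0.84 above the control.

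A cell copies its DNA once per cycle. In G1 the origin recognition complex, with Cdc6 and Cdt1, loads the MCM helicase onto origins. Cyclin E with Cdk2 then helps to fire them, and Cdc45 and the GINS complex join the MCM ring to form the active helicase. Primase and polymerase alpha start each strand, polymerases epsilon and delta extend it on the sliding clamp PCNA, and Fen1 and Lig1 finish the lagging strand. Many of these genes are transcribed in late G1 by E2F factors, which are held back by the RB protein until cyclin D and cyclin E kinases release them. In RAS-driven cells cyclin D1 is a known link between ERK signalling and this switch.

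The members' promoters were therefore searched for the letters of an E2F element. The windows run from 250 bases before to 50 bases after a RefSeq transcription start (GRCm38.p6), and 34 of the 41 members had at least 1, with 40 windows in all. The letters searched were TTTCCCGC, TTTCGCGC, TTTGCCGC or TTTGGCGC, on either strand. They were in the windows of 14 of the 34 members (41.2%), against 550 of the 14452 genes on the array with a window (3.81%). Counted by window, the shares were 35.0% for the members and 3.21% for the 18109 windows of genes on the array. CCAAT, a common promoter element, was in 21 of the 34 members (61.8%), against 42.0% of genes on the array. Within the 250 bases before the start alone, 9 of 34 members had them, against 3.15% of genes on the array. By role, the E2F letters were in 4 of 5 MCM genes, 3 of 5 loading and firing genes and 0 of 5 nucleotide supply genes. The letters were not particular to the members. Among lists described below, they were in 6 of 14 RB and E2F network genes (42.9%) and 4 of 11 newly copied chromatin genes (36.4%). They were also in 7 of 26 other replication genes (26.9%) and 1 of 20 G2/M and mitosis genes (5%). The 14 members with the letters had a median difference at 24 h of 0.48, and the 19 measured members without them had a median of 0.27, with ranges that overlapped (-0.04 to 1.14 and -0.27 to 1.52). A match is a description of letters and not a bound site, and the absence of these letters says nothing on E2F at a gene.

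The upstream 250 bases of 4 members are shown 5′ to 3′ on the gene's strand, as examples of different outcomes: high at 24 h with E2F letters (Mcm6 and Mcm5), highest at 24 h of all members without them (Rrm2), and near the control with them (Rfc3, at 0.03, with its dimmer probe set at 0.27). Capitals mark the E2F letters, and overlapping matches on opposite strands run together. The Mcm6 window is chr1:128359706-128359955 on the minus strand, with matches from -110 to -103, -106 to -99 and -47 to -40 relative to the start. The Mcm5 window is chr8:75109259-75109508 on the plus strand, with overlapping matches from -153 to -146 and from -149 to -142. The Rrm2 window is chr12:24708004-24708253 on the plus strand, with no match and with CCAAT from -50 to -46. CCAAT is also in the Mcm6, Mcm5 and Rfc3 windows. The Rfc3 window is chr5:151651209-151651458 on the minus strand, with a match from -10 to -3, and a further match at 1 to 8 lies past its end.
Mcm6: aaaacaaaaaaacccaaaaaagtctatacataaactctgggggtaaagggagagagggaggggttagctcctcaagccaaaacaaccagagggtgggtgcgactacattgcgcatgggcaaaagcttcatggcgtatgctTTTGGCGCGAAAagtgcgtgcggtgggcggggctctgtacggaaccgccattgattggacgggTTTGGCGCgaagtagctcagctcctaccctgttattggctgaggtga
Mcm5: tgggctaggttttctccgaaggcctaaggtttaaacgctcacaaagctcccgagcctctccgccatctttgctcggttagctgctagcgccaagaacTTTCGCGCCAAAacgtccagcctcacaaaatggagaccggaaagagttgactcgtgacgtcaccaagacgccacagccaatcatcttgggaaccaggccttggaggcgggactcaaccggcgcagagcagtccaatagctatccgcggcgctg
Rrm2: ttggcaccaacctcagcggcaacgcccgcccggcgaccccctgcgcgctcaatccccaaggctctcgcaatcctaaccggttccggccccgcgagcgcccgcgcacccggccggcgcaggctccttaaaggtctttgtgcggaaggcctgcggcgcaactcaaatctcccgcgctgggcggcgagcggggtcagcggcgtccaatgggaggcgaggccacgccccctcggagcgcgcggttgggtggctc
Rfc3: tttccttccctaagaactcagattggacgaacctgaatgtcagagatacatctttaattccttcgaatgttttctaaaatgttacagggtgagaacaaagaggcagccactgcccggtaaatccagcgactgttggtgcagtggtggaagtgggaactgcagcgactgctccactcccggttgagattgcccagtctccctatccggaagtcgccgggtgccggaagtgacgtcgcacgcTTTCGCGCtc

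At 24 h off doxycycline the members as a group stood above the control, and at 48 and 72 h they did not. Their median difference from the control came to 0.34, 0.00 and -0.01 at 24, 48 and 72 h, where the median of all genes was 0.00 at each time. At 24 h 35 of 40 members were above the control, 3 were below it and 2 were equal to it, against 44.2% of all genes above and 45.3% below. At least 0.5 higher were 14 of 40, against 1.61% of all genes, and at least 1 higher were 2 of 40, against 0.198%. None of the 40 was lower by 0.5, as were 0.698% of all genes. In a bulk sample more cycling cells and more RNA per cell cannot be told apart. The level filter, a mean intensity at the 40th percentile of probe sets, was passed by 35 of the 40. That mean includes the 24 h array. Among genes that passed the filter 49% were above the control at 24 h and 2.17% were higher by 0.5. The 5 members under it were Cdc6, Rfc4, Tyms, Ccne2 and E2f2, all dim on every array (10.4 to 23.1), with differences at 24 h between -0.04 and 0.21.

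**Figure D1:**
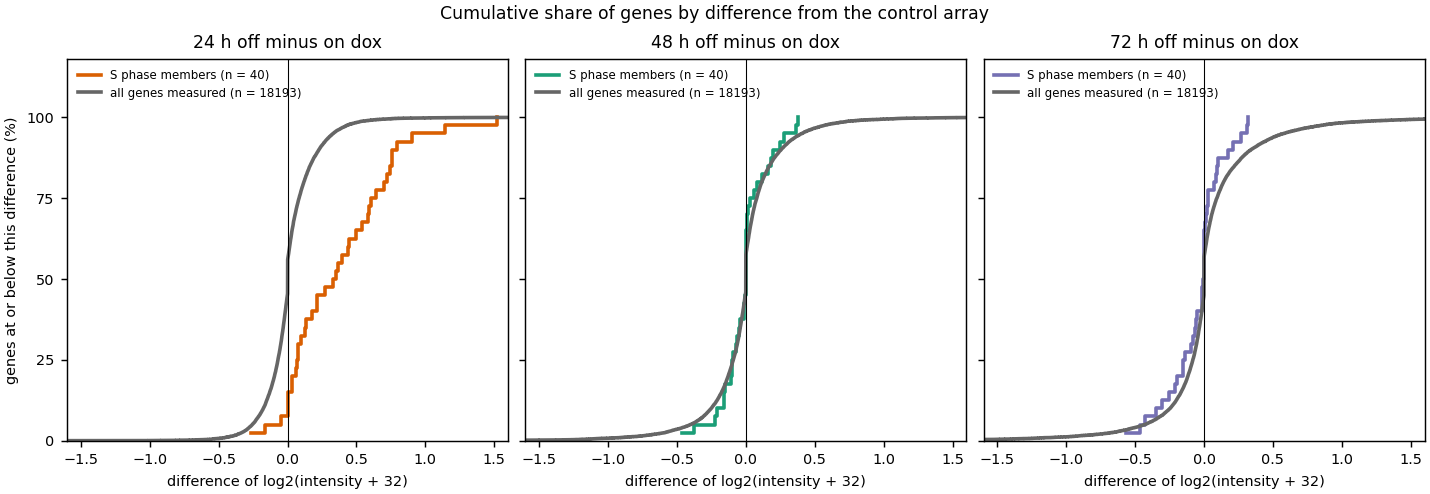
Cumulative share of genes (vertical axis, percent) by difference of log2(intensity + 32) from the control array (horizontal axis) at 24, 48 and 72 h, for the 40 members in colour and all 18193 genes in grey. The members' curve lies to the right of the grey one at 24 h, with a median of 0.34, and the curves meet near 0 at 48 and 72 h, with members' medians of 0.00 and -0.01.

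The array on which each member was highest and lowest was also counted. Being highest at 24 h uses the same 24 h values and probe sets, and requires a value above the control. This count is therefore not a separate check. The 24 h array alone gave the highest value for 35 of the 40 members, against 19.9% of all genes. Of the others, Ccne1, E2f2 and Chaf1b were highest on the control array, Tyms at 72 h, and Pold1 had one value on all arrays. The lowest value was on the 72 h array for 16 members (21% of all genes), on the control array for 10 (24.5%), at 48 h for 9 (19.3%) and at 24 h for 3 (22.4%), with 2 tied.

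**Figure D2:**
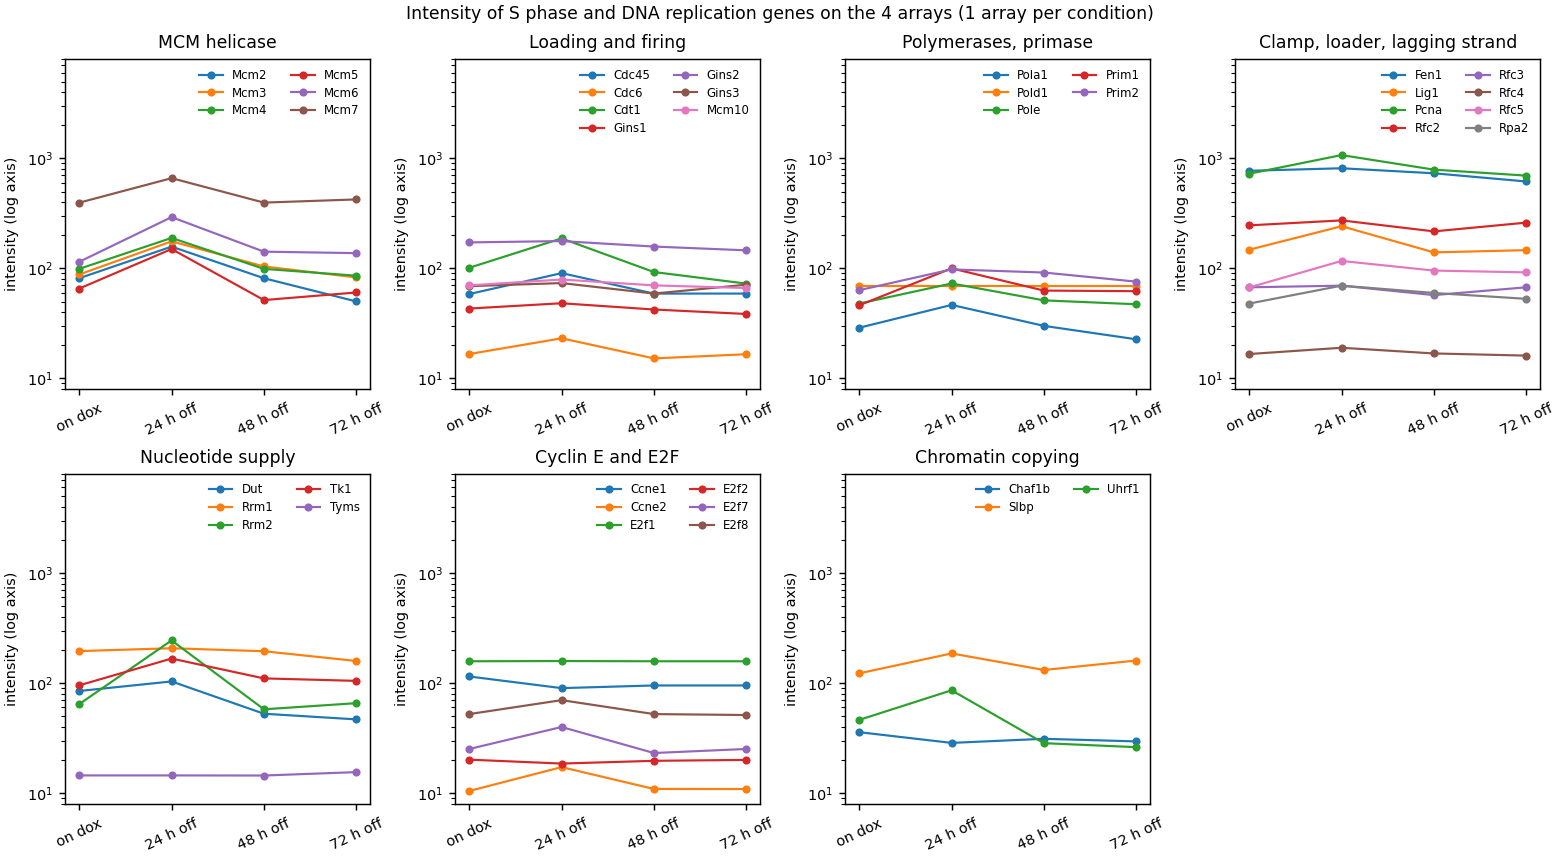
Intensity (vertical log axis) of each member's brightest probe set on the control, 24, 48 and 72 h arrays, 1 panel per role, 1 point per array and no error bar because each condition has 1 array. All 6 MCM lines peak at 24 h, while the lines of E2f1 (157.6, 158.3, 157.6 and 157.6) and Pold1 (68.6 on each array) are flat, and heights are not comparable between genes.

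The MCM genes, which encode the 6 subunits of the ring that unwinds DNA, were all higher at 24 h than on doxycycline, by 0.70 to 1.14 with a median of 0.77. Mcm6 had an intensity of 115, 293, 142 and 138 on the control, 24, 48 and 72 h arrays. Mcm5 read 65.6, 150.0, 51.5 and 60.4 on the same arrays. At 24 h these were 2.55 and 2.29 times the control. Mcm3 read 88.1, 176, 104 and 82.8, and Mcm2 read 81.4, 158, 81.4 and 50.1. Mcm2 at 72 h, 0.47 below the control, was the lowest value of the group against that array, but its other probe set was 0.10 above the control at 72 h. Mcm4 read 99.1, 189, 99.1 and 85.9, and Mcm7, the brightest of the group, read 396, 661, 397 and 424. For each of the 6 the 24 h array was the highest of the 4. The direction was shared by most probe sets, the size was not: of the 19 probe sets of these genes, 18 exceeded the control at 24 h and 1, a dim Mcm5 probe set (19.2, 14.2, 14.9 and 17.7), was below. The second brightest probe sets of Mcm2, Mcm3, Mcm4, Mcm5, Mcm6 and Mcm7 gave 0.28, 0.28, 0.62, 0.49, 1.04 and 0.45 at 24 h, and the dimmest of Mcm3 and Mcm6 gave 0.04 and 0.05.

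At 24 h the genes that load and fire the helicase all exceeded the control, but most by little. The 7 differences ran from 0.03 to 0.72 with a median of 0.12. Cdt1, which brings the MCM ring to origins, read 101, 187, 92.7 and 72.7 on the control, 24, 48 and 72 h arrays. It was the 1 gene of this group past 0.5, at 0.72, and other Cdt1 probe sets were at 0.20 and 0.00. Cdc45, part of the active helicase, read 58.5, 90.6, 59.0 and 59.0, with another probe set at 0.00 at 24 h. The GINS subunits Gins1, Gins2 and Gins3, which hold Cdc45 on the ring, differed by 0.09, 0.03 and 0.06, far less than their MCM partners. Mcm10, a firing factor that is not part of the ring, differed by 0.12, and Cdc6, the MCM loader, by 0.18 from a dim level (16.7, 23.1, 15.2 and 16.6).

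Primase and polymerase genes varied more. Prim1, the catalytic subunit of primase, read 46.2, 100.1, 62.9 and 62.1 on the control, 24, 48 and 72 h arrays, a difference of 0.76 at 24 h. Prim2, the large primase subunit, read 63.4, 98.0, 91.7 and 75.8. On these probe sets the 2 genes were also above the control at 48 h, by 0.28 and 0.38, and at 72 h, by 0.27 and 0.18. The other Prim1 probe set, under the level filter, gave 0.13, 0.09 and 0.05 at the 3 times. Of the other Prim2 probe sets one gave 0.28, 0.28 and 0.08 and one 0.01, 0.02 and -0.13. Pole and Pola1, the catalytic subunits of polymerases epsilon and alpha, were higher at 24 h by 0.39 and 0.37 and within 0.16 of the control later. Pold1, the catalytic subunit of polymerase delta, had the same value on all 4 arrays, but its other probe set read 53.2 on the control, 48 and 72 h arrays and 69.2 at 24 h, a difference of 0.25.

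Among the clamp, clamp loader and lagging strand genes 3 of 8 were higher by 0.5 at 24 h (1.61% of all genes). All 8 were above the control (44.2% of all genes). Pcna, the sliding clamp, read 726, 1072, 791 and 698 on the control, 24, 48 and 72 h arrays. Lig1, the ligase that joins Okazaki fragments, read 148, 242, 139.8 and 147. Both were set apart at 24 h, by 0.54 and 0.61. The clamp loader subunits differed among themselves: Rfc5 was higher by 0.59 at 24 h and still by 0.36 and 0.32 at 48 and 72 h, whereas Rfc2, Rfc3 and Rfc4 differed by 0.13, 0.03 and 0.07 at 24 h, with the dimmer Rfc3 probe set at 0.27. Rpa2, a subunit of the single-strand binding protein, differed by 0.35, 0.20 and 0.09 at the 3 times. Its other probe set, also above the level filter, gave 0.04, 0.02 and 0.02. Fen1, the flap nuclease, read 772, 814, 733 and 617, so it was near the control at 24 h and 0.31 below it at 72 h, although its dimmer probe set was at 0.38 at 24 h.

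On the brightest probe sets, the largest difference of any member was that of Rrm2, the regulated subunit of ribonucleotide reductase, which makes deoxynucleotides. It read 64.3, 244, 57.7 and 65.5 on the control, 24, 48 and 72 h arrays, so the 24 h array was 3.79 times the control and the other arrays off doxycycline were close to it. The difference at 24 h was 1.52, and the other Rrm2 probe sets were at 0.84 and 1.19. The probe set at 0.84 read 76.8, 163, 81.0 and 58.8, so it was brighter than the first on the control and 48 h arrays. The brightest one, like those of Mcm5, Fen1 and Ccne1, carries the suffix that Affymetrix gives to sets whose probes can match other transcripts. Rrm1, the large subunit of the same enzyme, differed by 0.07 at 24 h on its brightest probe set (195, 207, 194 and 159), and by 0.42 on the next (136, 193, 148 and 146). Tk1, thymidine kinase, read 95.2, 167, 110.1 and 105, a difference of 0.64 at 24 h. Dut, which keeps uracil out of DNA, was 0.21 above the control at 24 h and the furthest below it of all members later, at -0.46 and -0.57. Its readings were 84.6, 103, 52.5 and 46.7, but its dimmer probe set was at -0.08, -0.09 and -0.07. Tyms, thymidylate synthase, was dim on all 4 of its probe sets (11.9 to 15.6), so no change in it was measurable here.

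None of the 6 cyclin E and E2F genes, which regulate entry into S phase, reached 0.5 at 24 h, and their median was 0.11. E2f1, an activator of S phase genes, was equal within 0.01 on all arrays, although its second probe set was 0.23 higher at 24 h (68.9, 86.3, 68.4 and 68.0). The repressors E2f7 and E2f8, which are themselves E2F targets, were higher by 0.33 and 0.27 at 24 h and within 0.05 of the control afterwards. E2f7 was dim, at 25.1, 39.8, 23.1 and 25.1 on the control, 24, 48 and 72 h arrays. The mean of 28.3 with which it passed the level filter includes the 24 h value. Ccne1, cyclin E1, was the member furthest below the control at 24 h, at -0.27 (89.8 at 24 h, against 115 on the control array), but its other probe set was at 0.16, so its direction is not settled. Ccne2, cyclin E2, read 10.4, 17.2, 10.9 and 10.9, and E2f2 read 20.1, 18.5 and 19.6 on the control, 24 and 48 h arrays. Both lie under the level filter.

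Of the genes that rebuild chromatin behind the fork, Uhrf1, which guides maintenance DNA methylation, had the widest course. It read 46.2, 85.8, 28.4 and 26.1 on the control, 24, 48 and 72 h arrays, with differences of 0.59, -0.37 and -0.43. Its other probe set gave 0.24, -0.15 and -0.31. That probe set read 46.9, 61.2, 39.0 and 31.7, so it was the brighter one except at 24 h. Slbp, which binds the stem-loop of histone mRNAs, was higher by 0.49, 0.08 and 0.31, with its dimmer probe sets between -0.05 and 0.06. Chaf1b, a subunit of the histone chaperone CAF-1, was below the control at every time, by -0.16, -0.10 and -0.14, and dim (28.5 to 35.7).

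**Figure D3:**
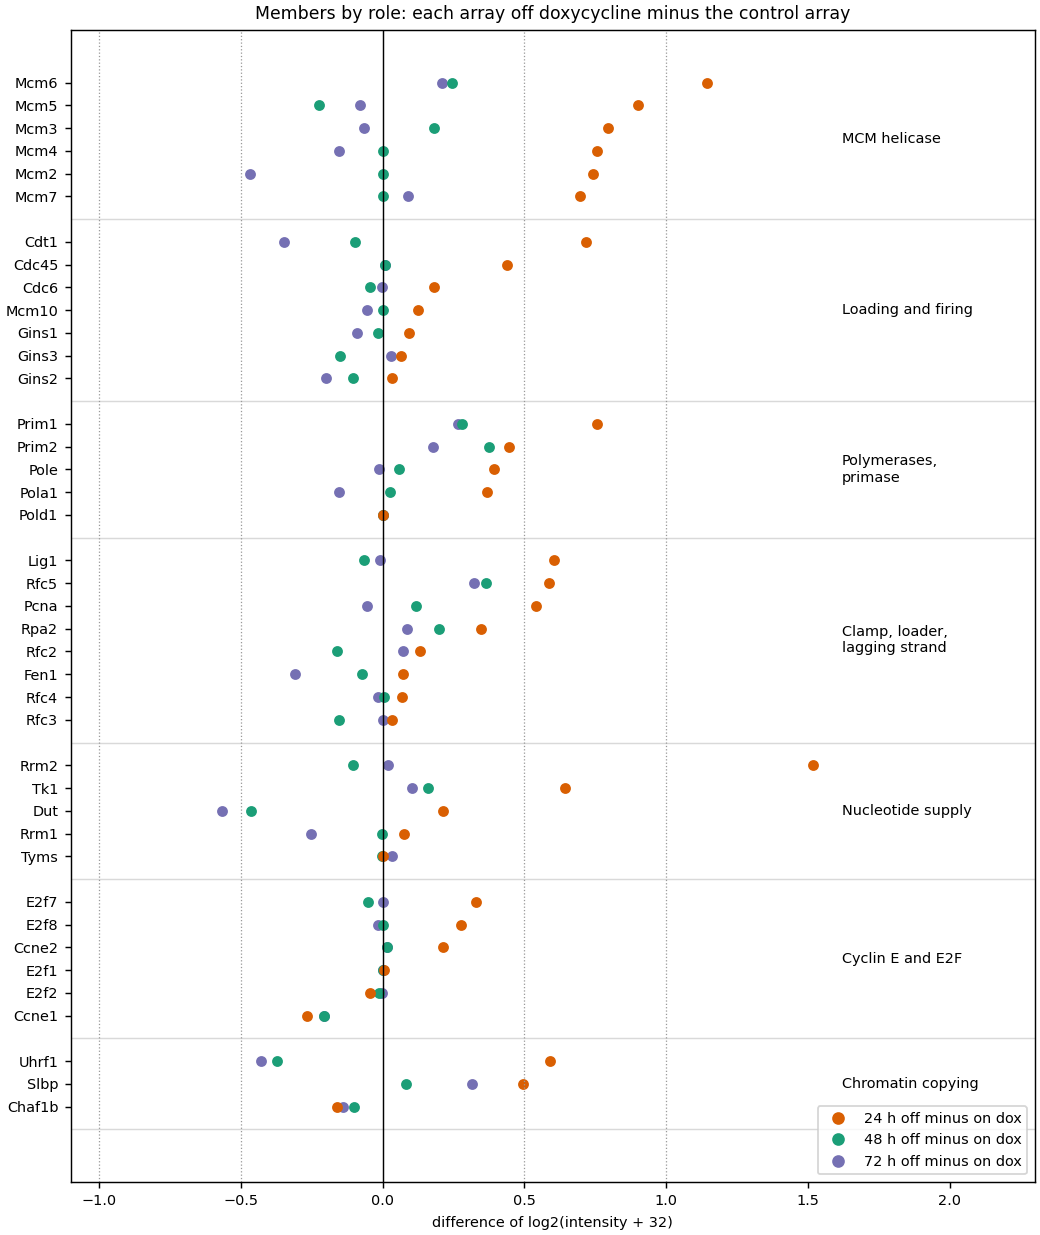
Difference of log2(intensity + 32) from the control array (horizontal axis) for each member at 24, 48 and 72 h (colours), grouped by role and sorted by the 24 h value, with dotted lines at 0.5 and 1. The 24 h points of the 6 MCM genes and of Rrm2 stand clear of their later points, which scatter about 0, whereas those of the cyclin E and E2F genes do not pass 0.33.

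At 48 and 72 h few members were far from the control on either side. At 48 h 15 of 40 were above and 19 below it (42.5% and 46% of all genes), and 0 were past 0.5 in either direction, against 3.35% of all genes higher and 3.54% lower. At 72 h 14 were above and 22 below (43.1% and 45%), with 0 higher by 0.5 (6.21% of all genes) and 1 lower, Dut (4.11%). These comparisons share the control array with that at 24 h. The comparison of 72 h with 48 h uses neither of the arrays of the 24 h contrast with the control, and it gave a median of -0.03, with 12 members above (44.5% of all genes), 24 below (39.2%) and 0 past 0.5 in size (2.65% of all genes higher and 1.1% lower).

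Later tumours set against the 24 h tumour, a comparison without the control array, showed the members lower. At 48 h against 24 h the median difference was -0.28, with 36 of 40 members below (41.5% of all genes), 11 lower by 0.5 (4.21%) and 2 lower by 1 (0.748%). At 72 h against 24 h it was -0.31, with 35 below (38.8%), 14 lower by 0.5 (4.99%) and 4 lower by 1 (1.37%). Those 4 were Rrm2 (-1.50), Mcm2 (-1.21), Cdt1 (-1.07) and Uhrf1 (-1.02). Both comparisons share the 24 h array with the first contrast, so the same high values enter each of them.

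Of the members' other probe sets 37 of 49 gave a lower difference at 24 h than the brightest probe set of the same gene, against 53.2% over all genes. The choice of the brightest probe set uses the 24 h value. Of all 89 probe sets of the 40 genes, 71 were above the control at 24 h, 12 below and 6 equal, against 46.4% of all probe sets with 1 symbol above. Of the 32 members with 2 or more probe sets, all probe sets were above the control in 17 and all below in 1, Chaf1b, against 20.4% and 15.5% of all genes with 2 or more. When the second brightest probe set stood for each of these 32 genes, 3 were higher by 0.5 at 24 h (1.56% of all such genes), with a median of 0.15.

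**Figure D4:**
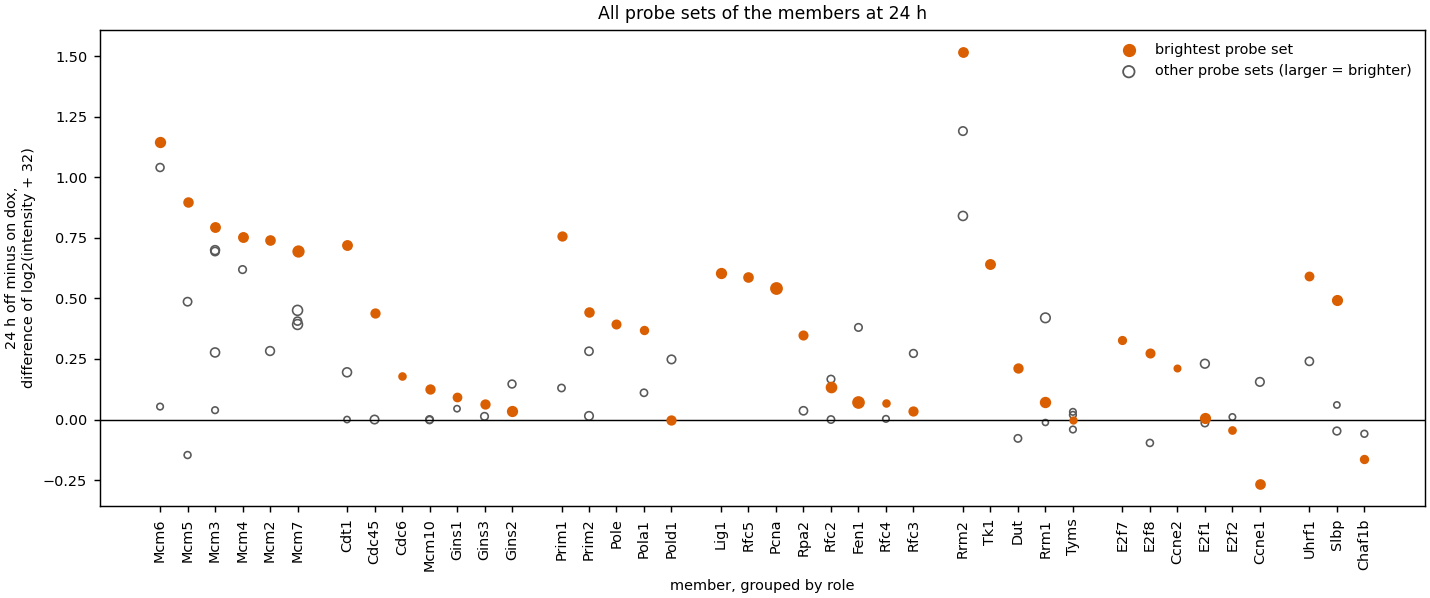
Difference at 24 h from the control array, in log2(intensity + 32), for all 89 probe sets of the members (vertical axis), by gene and role, with the brightest probe set filled and larger circles for brighter probe sets. All 3 Rrm2 probe sets lie at 0.84 or above, and 71 of the 89 circles lie above 0.

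Other genes of the pathway were set beside the members in lists that cover the rest of the replication machinery. Of 31 other replication genes 18 exceeded the control at 24 h and 10 lay under it (44.2% and 45.3% of all genes). Their median was 0.10, and 2 were higher by 0.5 (1.61% of all genes). These were Tipin (0.64), of the fork protection complex, and Rpa1 (0.52), the large subunit of the single-strand binding protein. At 72 h 8 of the 31 were above and 21 below, with a median of -0.05. All 11 measured genes of newly copied chromatin stood above the control array at 24 h, with a median of 0.35, led by the maintenance methyltransferase Dnmt1 (0.53) and the histone variant gene H2az1 (0.52), and their median was 0.00 at 72 h. The 15 genes of the fork checkpoint and repair had a median of 0.03 at 24 h and of 0.00 at 72 h, with 0 past 0.5 at either time.

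At 24 h nucleotide synthesis genes outside the members had a median of 0.10, like the other replication genes. Of 17 such genes 11 exceeded the control then (44.2% of all genes). At 72 h 12 were below it (45%) and 3 were lower by 0.5 (4.11%). Their median at 72 h was -0.20, against -0.05 for the other replication genes. Shmt2, a mitochondrial enzyme of one-carbon supply, read 352, 280.0, 136 and 99.1 on the control, 24, 48 and 72 h arrays. Ctps, CTP synthetase, read 208, 293, 101 and 141. The second of these was above the control at 24 h and below it at 48 h, by -0.85, whereas Shmt2 was below it at each time.

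The RB and E2F network had a median of 0.07 at 24 h over 19 genes, with 0 past 0.5 in size. Its highest gene was Ccna2, cyclin A2, which read 236 at 24 h and 165 on each of the other arrays, and its lowest was E2f5 (-0.48), a repressive E2F. The list of G2/M and mitosis genes, active in the next phase of the cycle, had a median of 0.19 at 24 h and of 0.00 at 72 h. At 24 h 16 of 23 were above the control, against 44.2% of all genes. The growth marker Mki67 (135, 235, 159 and 159) and the topoisomerase Top2a (183, 291, 193 and 176) were the 2 genes of that list higher by 0.5 at 24 h, while Plk1, a mitotic kinase, was at -0.20. The D cyclin, CDK and CDK inhibitor list had a median of -0.04 at 24 h and -0.20 at 72 h, with Ccnd1, cyclin D1, at -2.89 at 72 h. The short list of ERK output genes had a median of -0.24 at 24 h and of -1.50 and -1.73 at 48 and 72 h, with 0, 8 and 8 of 8 lower by 0.5.

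**Figure D5:**
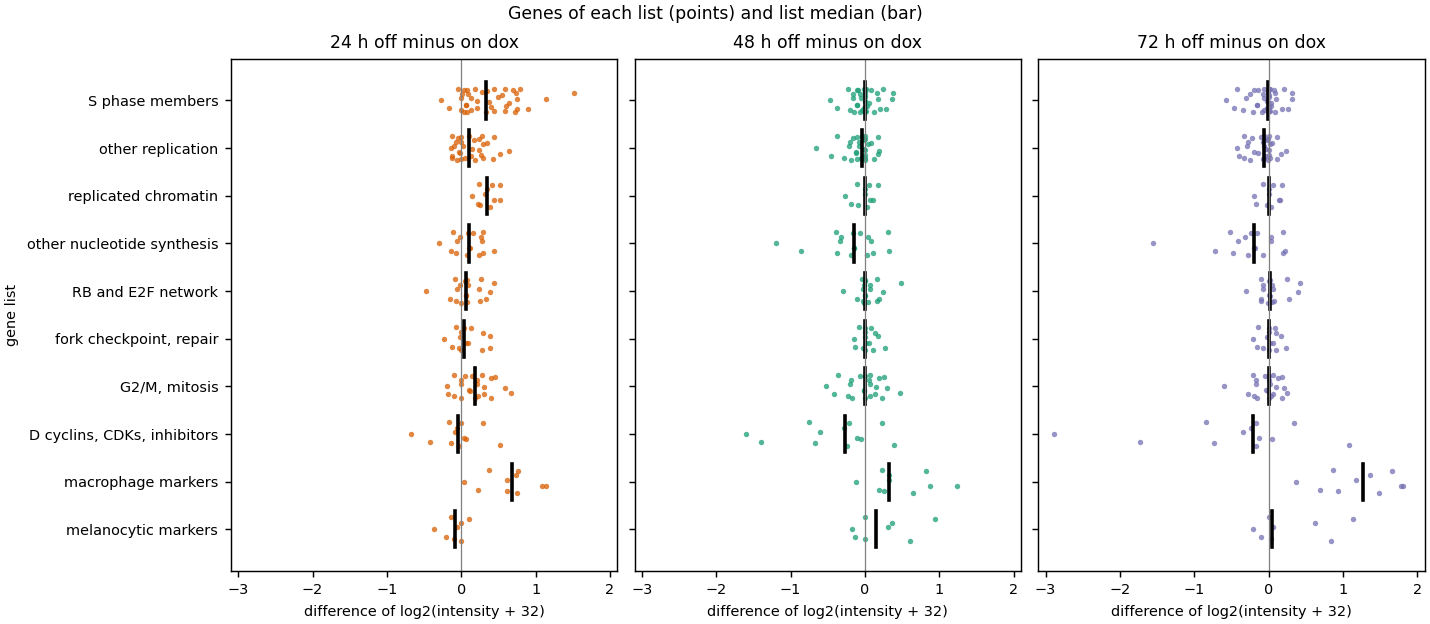
Differences from the control array in log2(intensity + 32) (horizontal axis) at 24, 48 and 72 h for the genes of 10 lists (rows), with 1 point per gene and a bar at the list's median. At 24 h the bars of the members (0.34) and of the replicated chromatin genes (0.35) lie to the right of those of the other replication and cell cycle lists, and the macrophage markers (0.68, 0.32 and 1.27) stand to the right at every time.

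Markers of host cells and MHC class II genes also differed between the arrays. Of 10 macrophage markers 10, 9 and 10 exceeded the control at 24, 48 and 72 h, with medians of 0.68, 0.32 and 1.27. The S phase members had medians of 0.34, 0.00 and -0.01 at these times. The macrophage marker intensities summed to 5802, 10197, 8215 and 14993 on the control, 24, 48 and 72 h arrays. The 6 measured MHC class II genes summed to 1183, 7232, 2385 and 2392 over the same arrays. Their median was 1.63 at 24 h with all 6 above the control, so like the S phase members they were highest at 24 h. Which cells expressed the MHC class II genes was not tested. The 8 lymphoid markers summed to 382, 385, 414 and 370.3, with a median of 0.05 at 24 h. The 72 h array held the highest sums of muscle, fat, matrix and endothelial markers. Over the control, 24, 48 and 72 h arrays the 8 muscle markers summed to 294, 603, 269 and 5136, with 7 of 8 higher by 1 at 72 h, and the 4 measured fat markers to 369, 150.1, 579 and 2171. The 7 matrix markers summed to 16196, 16976, 34491 and 61502 and the 8 endothelial markers to 453, 418, 426 and 771. Their medians at 72 h were 3.33, 2.15, 1.77 and 0.41, and the part of host tissue in the members' values at 48 and 72 h was not tested. Endothelial, matrix, keratinocyte and erythroid markers had medians of -0.06, 0.09, -0.05 and -0.03 at 24 h, and the melanocytic list had -0.08. No marker in these lists was at 0 on any array. The part of host cells in the 24 h values of the S phase members was not tested.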

How the data were processed

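RNA from 4 mouse tumours, 1 per condition, was measured on an Affymetrix mouse array, from biotin-labelled cRNA made from 10 ug of total RNA, per the labels' protocols. The values deposited by the authors are linear intensities, 1 for each probe set on each array. MAS5 and RMA are named in the submitters' processing notes, and their roles are not given in the sources used here. Of 45037 probe sets 34945 had 1 symbol in the platform annotation, 932 had several and 9160 were not listed, and those with 1 symbol were used. Values were equal between at least 2 arrays in 48.0% of probe sets, and the origin of these ties is unknown.

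From the deposited intensities log2(intensity + 32) was computed, with no further normalization, and arrays were compared as differences with no p-value, since no condition had a replicate. Genes were not filtered on level except where stated. The main counts of members stand beside the same over all genes. The script was tested on simulated arrays with known shifts. All members were named. Those described in full were the 2 with the largest and the 1 with the smallest difference at 24 h in each role, and any past 1. Some were added after their values were seen (among them the other Mcm genes, Prim2, Rfc5, Fen1, Dut and Uhrf1). Of each other list up to 3 genes at either end were eligible. The promoters of Mcm6, Mcm5, Rrm2 and Rfc3 were chosen with their values known. The members, the 19 other lists and the alternatives were chosen with earlier results of these data known. Promoter sequences are from RefSeq (GRCm38.p6). Python 3.11.15, pandas 2.3.3, NumPy 2.4.6 and matplotlib 3.10.9 were used.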

Additional observations from a re-analysis of the deposited data

How the results depend on the processing

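Each comparison was recomputed under 10 alternatives. Of 90 values of medians and main counts, 73 stayed within 0.1 (medians) or 1.5 times (counts) and 17 moved. No median of 0.1 or more in size changed sign. The medians at 48 and 72 h against the control, and at 72 h against 48 h, stayed between -0.05 and 0.00. All 17 values that moved were therefore from comparisons that include the 24 h array. The median at 24 h against the control, 0.34, was 0.50 with a pseudocount of 8, 0.14 with one 4 times as large as 32, 0.44 with a level filter at the 60th percentile, 0.22 when probe sets were averaged and 0.15 with the second brightest probe set. The count higher by 0.5, 14, was 4 with the larger pseudocount, 9 when probe sets were averaged and 3 with the second brightest. At 48 h against 24 h the median, -0.28, was -0.42 with a pseudocount of 8, -0.14 with the larger one and -0.15 with the second brightest probe set, and the count lower by 0.5, 11, was 5 with either of the last pair. At 72 h against 24 h the median, -0.31, was -0.16 with the larger pseudocount and -0.17 with the second brightest probe set, and the count, 14, was 9 and 7. A larger pseudocount shrinks every difference by construction. For the probe set choices the cause was not tested. Rrm2 at 24 h ranged from 0.84 to 1.80. No paired analysis was possible because each condition has 1 array, and no array could be left out of a comparison of 2. Signal over background limits Tyms, Ccne2, Cdc6, Rfc4 and E2f2.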

Other observations

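The replication-dependent histone genes, whose mRNAs Slbp binds, differed among themselves. Of 9 measured, 5, 7 and 8 exceeded the control at 24, 48 and 72 h, against 44.2%, 42.5% and 43.1% of all genes, with medians of 0.01, 0.09 and 0.08. Of these 9, 4 lay under the level filter (H1f4, H2bc21, H3c11 and H3c7), and of the 5 above it 4, 5 and 5 exceeded the control, with medians of 0.17, 0.18 and 0.28. H1f2, a linker histone, was the 1 gene past 1 at each time: its brightest probe set read 164, 412, 522 and 657 on the control, 24, 48 and 72 h arrays. The next H1f2 probe set read 108, 96.2, 102 and 92.8 and the dimmest 17.9, 36.8, 61.2 and 80.3, so they do not share a direction. H2bc18, a core histone H2B gene, read 62.5, 84.6, 69.6 and 131. Histone gene copies are close in sequence, so the assignment of a probe set to 1 copy is uncertain. Whether these probe sets read the histone mRNAs that Slbp binds was not tested.

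The CDK inhibitor gene Cdkn1b, which encodes p27, was highest on the same array as the S phase genes, with 99.4, 156, 95.2 and 84.9 on the control, 24, 48 and 72 h arrays, a difference of 0.51 at 24 h. Cdkn1a, which encodes p21, went the other way in the same list, with 997, 614, 614 and 587 and a difference of -0.67 at 24 h. The ubiquitin-conjugating enzyme Ube2c, of mitotic exit, read 104, 95.2, 62.5 and 57.8, so it was the lowest of the G2/M genes at 72 h, at -0.60.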
